A study of Drosophila mettleri with 18 samples.

Results

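Larvae of the Santa Catalina Island population of the fly Drosophila mettleri were compared between coastal prickly pear cactus and laboratory food. The comparison takes 6 of the 18 libraries in the series: 3 from larvae reared on prickly pear and 3 from larvae reared on Drosophila 4-24 Instant food, called lab food here. Each food was given to the same 3 fly strains (C-M, C-7, C-9), so a strain has 1 library on each food and the strains are the replicates. A library was made from a pool of 10 larvae aged 8 days and in the third larval instar. The labels name no treatment other than the food and give no sex, so the pools may differ in it. The libraries set beside these are those of the same Catalina strains on saguaro cactus (n = 3). They are joined by those of the Sonoran strains T-28, T-27 and T-22 on prickly pear (n = 3) and on lab food (n = 3). The Sonoran saguaro libraries (n = 3) entered the shared filter, scaling and estimate of spread, and the means over all 18 libraries.

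D. mettleri is a desert fly whose larvae are known to develop in soil soaked with the juices of rotting cacti. Cactus hosts differ in sugars, lipids and toxic compounds; saguaro, a columnar cactus of the Sonoran Desert, contains alkaloids. Insects handle such compounds with families of detoxifying enzymes, among them the cytochromes P450 and the glutathione S-transferases. The study asks how transcript levels vary with the cactus host a population uses, and prickly pear is a cactus that grows on the island.

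Transcripts were assembled from the reads without a genome, and the deposited table counts reads per assembled gene, called a feature here. The files do not pair the assembly names with gene names, so no feature can be given a function, no list of detoxification genes or of tissue markers could be matched, and the labelled larval material could not be checked against its markers. The same holds for sequences, of which none is shown. Features are named only where a result turns on them. Levels are in CPM, reads of a feature relative to all reads of its library, scaled with TMM factors, which correct library totals for differences in composition; they are not divided by length, so levels of different features are not compared as amounts of RNA.

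The 6 libraries held 12177096 to 15093862 counts, with 12177096, 14560231 and 13197358 on prickly pear and 14117945, 14536458 and 15093862 on lab food, in the strain order C-M, C-7 and C-9. The TMM factors were 1.26, 1.18 and 1.64 on prickly pear and 0.992, 1.07 and 0.779 on lab food. The scaling therefore differs between the foods, most in strain C-9, and every direction below is relative to it. With TMM factors the median log2 fold change over all features was 0.03, and with library totals alone it was 0.55.

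In Catalina larvae, 52 features fell and 1 rose on prickly pear against lab food, out of 12514 tested (edgeR quasi-likelihood test, Benjamini-Hochberg adjusted p below 0.05). Those that fell were 0.416% of all features tested, the 1 that rose was 0.00799%, and together they were 0.424%. The smallest adjusted p was 0.0219, and 2326 features had an unadjusted p below 0.05, of which 1571 were lower and 755 higher on prickly pear. With strain as a block, the same test called 19 features, all lower, of which 12 were among the 53. The spread behind these p-values was estimated over all 18 libraries, and the 6 Catalina libraries alone gave 0 calls. Another scaling, RLE factors, gave 4 calls and library totals alone gave 1, while DESeq2 gave 686. Because these are whole larvae, fewer cells of a type and less RNA per cell cannot be told apart.

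The feature that rose was comp34199_c0, a scarce transcript. It had 36, 28 and 70 counts on prickly pear and 4, 12 and 6 counts on lab food in C-M, C-7 and C-9. In scaled units that was 2.35, 1.64 and 3.24 CPM on prickly pear, against 0.286, 0.771 and 0.510 CPM on lab food. The groups did not overlap, and strain C-7 had both the lowest level on prickly pear and the highest on lab food. The log2 fold change was 2.18 (SE 0.42; edgeR adjusted p = 0.0393), and with strain as a block the call was lost (edgeR adjusted p = 0.0687).

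The feature that fell most, comp29237_c0, was nearly absent from larvae on prickly pear. It had 2, 1 and 0 counts there, against 248, 60 and 319 counts on lab food, in C-M, C-7 and C-9. Summed over the strains, its scaled level was 273-fold lower on prickly pear, with an exact 95% interval for counting error of 93.0 to 1327. The lab food levels were 17.7, 3.85 and 27.1 CPM, lowest in C-7. The fitted log2 fold change of -7.94 (SE 1.49; edgeR adjusted p = 0.0385) depends on a prior count, as the prickly pear libraries hold almost no reads of it.

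The most abundant feature that fell was comp38048_c1. Its level was 1782, 3563 and 1823 CPM on prickly pear, against 8624, 6785 and 8680 CPM on lab food, in C-M, C-7 and C-9. The means were 2389 ± 1017 CPM on prickly pear and 8030 ± 1078 CPM on lab food (SD, n = 3 each), a log2 fold change of -1.75 (SE 0.35; edgeR adjusted p = 0.0423). With strain as a block the call was lost (edgeR adjusted p = 0.0664). The foods did not overlap, but within strain C-7 the difference was smaller, at -0.93 on the log2 scale against -2.28 in C-M and -2.25 in C-9. The plot of the 3 named features shows the same order of foods in the Sonoran libraries; the Sonoran food difference did not enter the rule for naming features, but these libraries shared the filter, scaling and estimate of spread behind the calls.

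**Figure D1:**
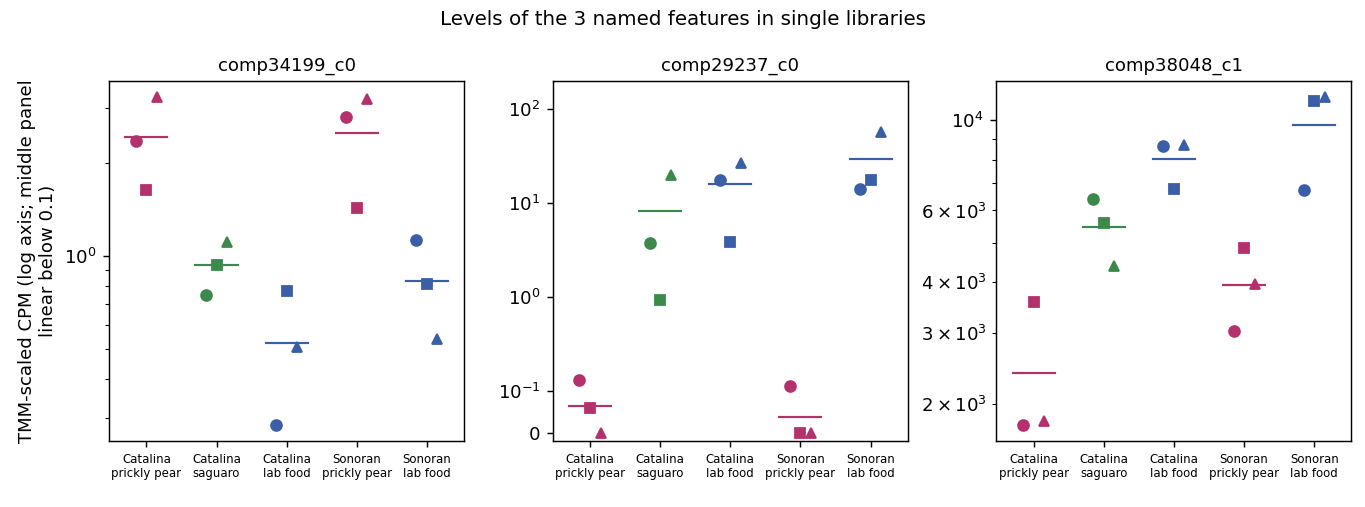
Levels of the 3 named features in single libraries, in TMM-scaled CPM on log axes (linear below 0.1 CPM in the middle panel). Circles, squares and triangles stand for C-M, C-7 and C-9 in Catalina and T-22, T-27 and T-28 in Sonoran; horizontal bars are means of 3 libraries. In Catalina, comp34199_c0 reached 1.64 to 3.24 CPM on prickly pear and 0.286 to 0.771 CPM on lab food, while comp38048_c1 stayed at 1782 to 3563 CPM on prickly pear and 6785 to 8680 CPM on lab food.

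The 52 features that fell spanned a wide range of levels and fold changes. Their mean level on lab food lay between 1.35 and 8030 CPM, with a median of 96.4 CPM. Their log2 fold changes ran from -7.94 to -0.70, with a median of -1.88; 48 were at least 2-fold lower on prickly pear, 22 at least 4-fold and 10 at least 16-fold. In all 52 the 3 prickly pear libraries lay below the 3 lab food libraries. Such a lack of overlap was common in these libraries: 14.1% of all features tested lay wholly lower on prickly pear and 13.1% wholly higher. The 52 features held 0.695%, 0.938% and 0.678% of all counts in the prickly pear libraries of C-M, C-7 and C-9, against 2.38%, 2.04% and 2.21% in their lab food libraries. Since these same libraries chose the 52, their shares are a description with no test.

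Strain C-7 had the smallest differences in these 52 features. The median within-strain log2 difference was -1.96 in C-M, -1.30 in C-7 and -2.60 in C-9. Of the 52, 49 were at least 2-fold lower in C-M, 35 in C-7 and 49 in C-9; 34 were so in all 3 strains. The number at least 4-fold lower was 25 in C-M, 17 in C-7 and 39 in C-9. As the foods did not overlap in any of the 52, each was necessarily lower on prickly pear in each strain. The smallest within-strain difference was -0.45, in C-7.

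**Figure D2:**
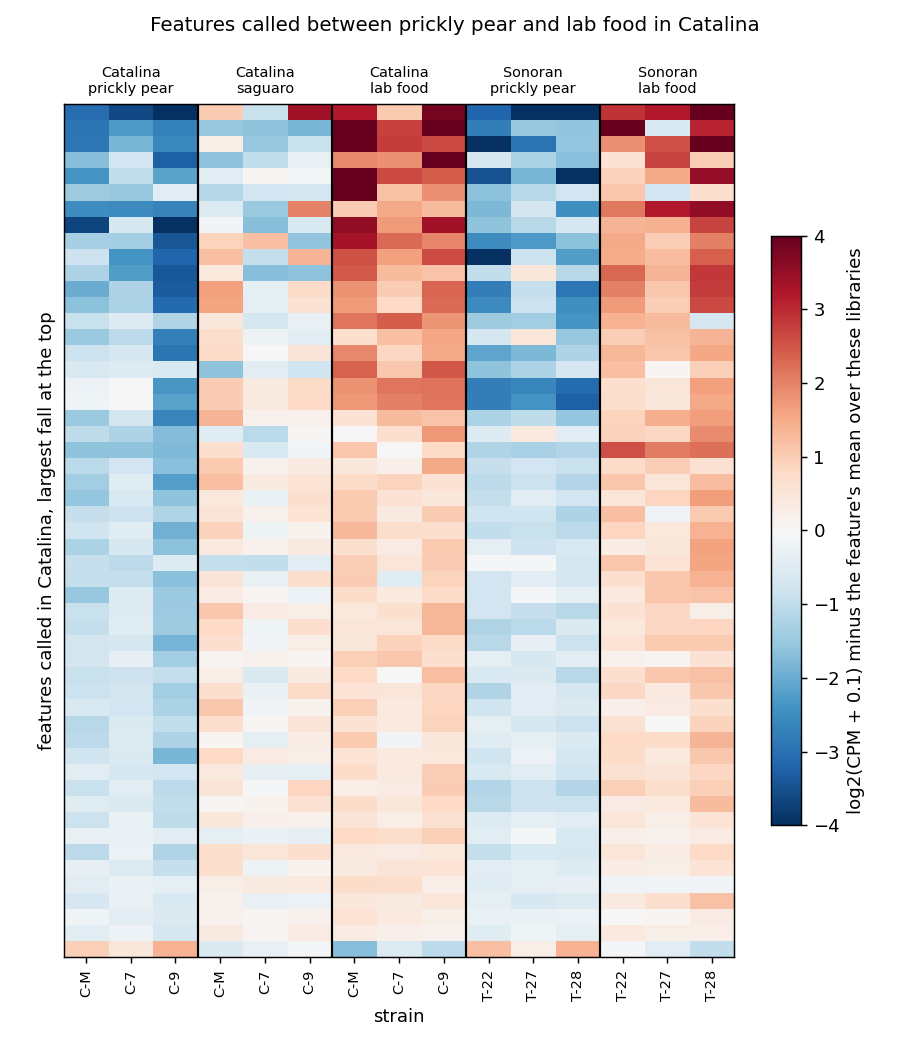
The 53 features called between prickly pear and lab food in Catalina larvae, 1 per line, with the largest fall at the top and the feature that rose at the bottom. Colours give log2(CPM + 0.1) minus the feature's mean over the 15 libraries shown, cut at 4 in either direction. In all 52 features that fell, the prickly pear libraries are lower than the lab food libraries in Catalina and in Sonoran; on saguaro, 48 are lower than on lab food, 18 of them at least 2-fold.

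The 52 features belong to 49 components of the assembly, and 34 of them are the only feature of their component. Features of 1 component can be versions or near-identical copies of a gene, between which reads can be divided, so their separate levels are uncertain. In 3 components a pair of features fell. In 1 of these the log2 fold changes were -2.61 and -2.49, and in another -3.78 and -3.58. The 14 components with several tested features held 33 further features that were not called, of which 21 were lower on prickly pear. In the remaining 12 the feature beside the fallen one was higher, by up to 1.04 on the log2 scale.

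Relative to the TMM scaling, abundant features (high CPM) were lower on prickly pear more often than scarce ones (low CPM). CPM is not divided by length, so these classes mix the length of a feature with its amount of RNA. Of 265 features averaging 500 CPM or more over all 18 libraries, 5 fell, 92.8% had a lower mean on prickly pear and the median log2 fold change was -0.60. The 2159 features at 50 to under 500 CPM gave 24 that fell and a median of -0.24. The 5183 features at 5 to under 50 CPM gave 18 that fell and a median of 0.01. The 4907 features under 5 CPM held the 1 that rose and 5 that fell, with a median of 0.28. With library totals alone the medians were -0.08, 0.28, 0.53 and 0.79, so the order of the classes was kept while the sign turned for the 50 to under 500 CPM class.

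The strains differed in how far abundant features were lower. In the class of 500 CPM or more the median within-strain log2 difference was -0.66 in C-M, -0.11 in C-7 and -1.14 in C-9. In the class under 5 CPM it was 0.12 in C-M, 0.10 in C-7 and 0.62 in C-9. C-9 thus had the widest gap between abundant and scarce features and C-7 the narrowest.

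**Figure D3:**
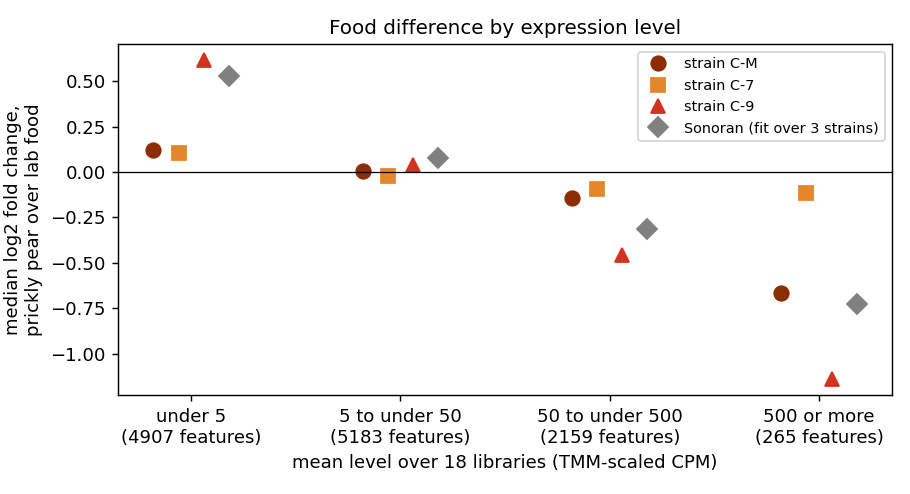
Median log2 fold change of prickly pear over lab food in 4 classes of mean expression, from under 5 CPM to 500 CPM or more, for the 3 Catalina strains and for Sonoran larvae. Points are medians over the number of features given on the axis, with TMM scaling. Strain points use within-strain differences, and Sonoran points use the fitted log2 fold change over 3 strains. In the highest class strain C-7 lies at -0.11, C-M at -0.66, Sonoran at -0.73 and C-9 at -1.14; with library totals alone the Catalina medians are higher and that of the class from 50 to under 500 CPM turns positive.

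The share of raw counts in the most abundant features is itself not scaled, though the features were picked by TMM-scaled level. The 100 features with the highest mean level over all 18 libraries held 45.1%, 47.0% and 35.0% of the counts on prickly pear, against 46.4%, 47.0% and 51.2% on lab food, in C-M, C-7 and C-9. The means were 42.4% ± 6.43 on prickly pear and 48.2% ± 2.65 on lab food (SD, n = 3 each), a difference of -5.83 percentage points (exact permutation test, two-sided, p = 0.2, where 0.1 is the smallest that 3 against 3 allows). The groups overlapped, with the prickly pear library of C-7 above the lab food library of C-M. The libraries of C-7 differed by -0.0236 percentage points. Strain C-9 differed by -16.2 percentage points, and without it the mean difference was -0.644.

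Taken strain by strain, the response to prickly pear had very different sizes. The SD of the within-strain log2 differences over the 12514 features was 0.81 in C-M, 0.54 in C-7 and 1.57 in C-9. Features at least 2-fold apart between the foods numbered 1702 in C-M (640 higher and 1062 lower on prickly pear), 629 in C-7 (268 higher and 361 lower) and 4556 in C-9 (2498 higher and 2058 lower). In the Sonoran strains the same count was 4073 in T-22, 3086 in T-27 and 4705 in T-28. C-9 therefore lay within the Sonoran range, and C-M and C-7 lay below it. These are differences between single libraries and carry no test.

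C-9 also resembled the Sonoran strains in which features differed. Across the 12514 features, its within-strain differences had r = 0.87 with those of T-22, 0.78 with T-27 and 0.87 with T-28, beside 0.80 to 0.87 among the Sonoran strains themselves. C-M had r = 0.60 to 0.64 with the Sonoran strains and 0.66 with C-9. C-7 had r = 0.35 to 0.39 with the Sonoran strains, 0.35 with C-M and 0.37 with C-9. These correlations are across features, which are not independent; no library is shared between strains, but all were scaled together, and a strain with smaller differences gives lower values of r.

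Where a pair of strains both passed 2-fold, the directions mostly matched. Of 1271 features past 2-fold in both C-M and C-9, 1226 had the same direction, which is 72.0% of the features past 2-fold in C-M and 26.9% of those in C-9. Of 296 features past 2-fold in both C-M and C-7, 245 had the same direction and 51 the opposite one. Of 418 in both C-7 and C-9, 356 had the same direction and 62 the opposite one. Over all features, 46.3% had 1 sign in all 3 strains.

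**Figure D4:**
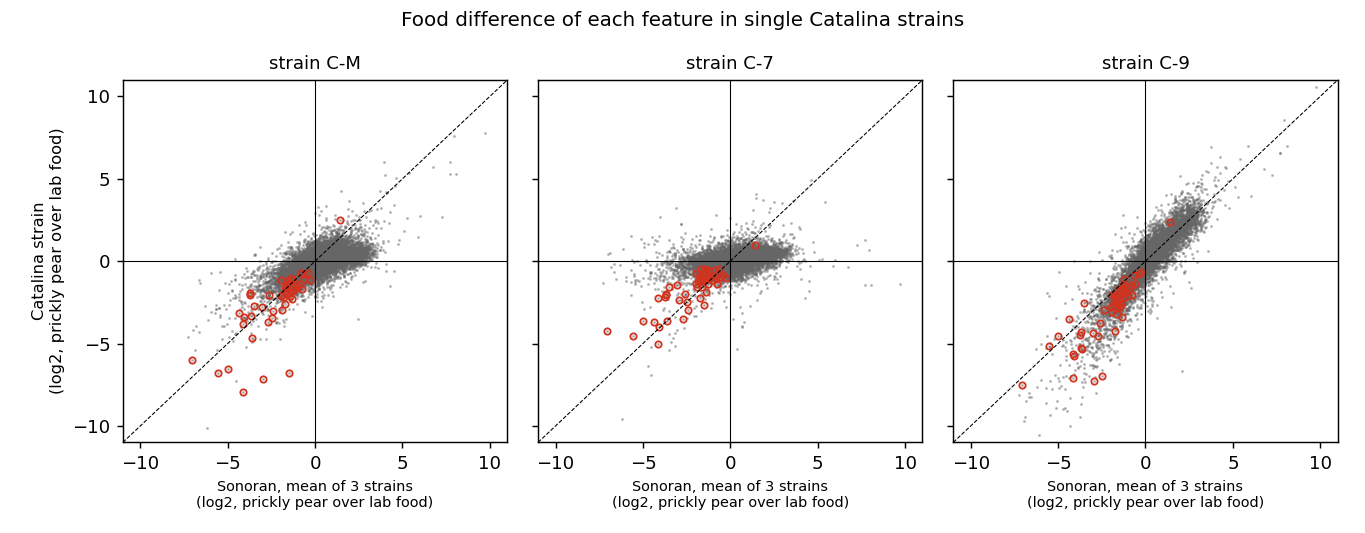
Log2 difference between prickly pear and lab food of each of 12514 features in 1 Catalina strain (vertical) against its mean over the 3 Sonoran strains (horizontal), with the line of equal values dashed. Red circles are the 53 features called in Catalina. The cloud of strain C-9 (SD 1.57) follows the dashed line, that of C-M (SD 0.81) is flatter, and that of C-7 (SD 0.54) is nearly level, while the red circles lie below 0 in every strain except for the feature that rose.

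At least 2-fold in the same direction in all 3 strains, 163 features were lower and 40 higher on prickly pear, 1.3% and 0.32% of the features tested. Of the 163, 34 were among the calls, and of the 40, none was. The lower ones had a median level of 23.6 CPM over all 18 libraries and the higher ones 1.99 CPM. In the Sonoran libraries, 131 of the 163 fell and 26 of the 40 rose, where 14.4% of all features fell and 14.6% rose; none was called in the opposite direction. The median Sonoran log2 fold change was -2.64 for the 163 features and 2.74 for the 40.

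Along the food difference of the Sonoran larvae, the Catalina lab food libraries spanned a wider range than the prickly pear libraries. To place each library, its log2 levels were projected on the difference between the Sonoran food means, with 0 at the mean of the Sonoran lab food libraries and 1 at that of the Sonoran prickly pear libraries. The Catalina prickly pear libraries lay at 1.03, 0.878 and 1.27, against 0.607, 0.707 and 0.140 for the lab food libraries, in C-M, C-7 and C-9. The prickly pear libraries all lay near or past the Sonoran prickly pear mean, and the foods did not overlap. On lab food, C-9 lay near the Sonoran lab food mean, while C-M and C-7 lay nearer to the prickly pear end.

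The food difference on this scale varied several-fold between strains. The means were 1.06 ± 0.198 on prickly pear and 0.485 ± 0.302 on lab food (SD, n = 3 each), and the within-strain difference was 0.419 in C-M, 0.171 in C-7 and 1.13 in C-9. Library totals alone in place of TMM factors gave within-strain differences of 0.407, 0.167 and 1.19. Plain correlations of log2 levels had the order of the positions on lab food but not on prickly pear. With the mean of the Sonoran lab food libraries, r was 0.982 for the lab food library of C-9, 0.936 for that of C-M and 0.935 for that of C-7. With the Sonoran prickly pear mean, r was 0.974, 0.966 and 0.960 for the prickly pear libraries of C-M, C-7 and C-9. The prickly pear library of C-9, furthest along the scale, thus had the lowest r there. The prickly pear and lab food libraries of C-7 had r = 0.977 with each other, above the 0.975 and 0.918 of its prickly pear library with those of C-M and C-9.

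**Figure D5:**
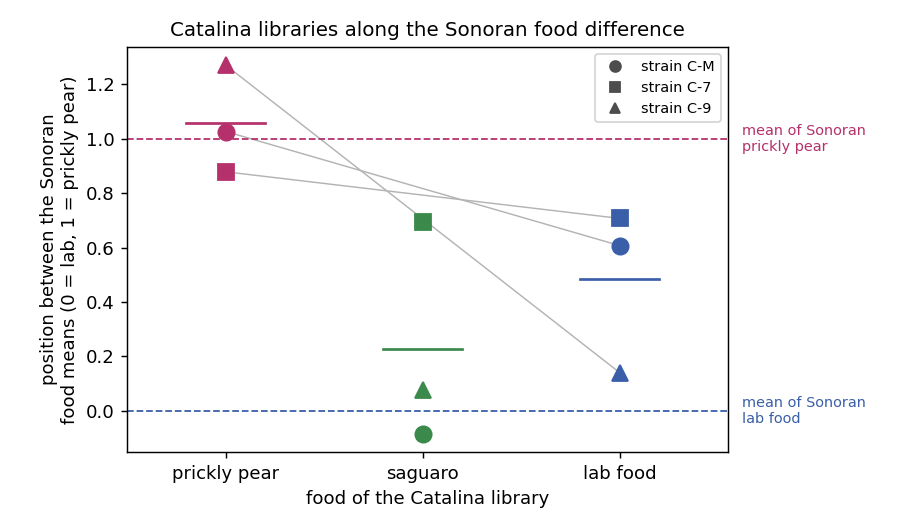
Position of each Catalina library between the Sonoran food means (0 for lab food and 1 for prickly pear, dashed lines), with 1 symbol per strain, bars at the means of 3 libraries and grey lines joining the prickly pear and lab food libraries of a strain. The prickly pear libraries lie at 0.878 to 1.27; the lab food libraries spread from 0.140 in C-9 to 0.707 in C-7.

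The calls depended on which strains were in the fit. Without the prickly pear library of C-M or of C-9, or the lab food library of C-M, there were 0 calls, and without the lab food library of C-9 there were 3. Without the lab food library of C-7 there were 38, with 28 of the 53 among them. Without the prickly pear library of C-7 there were 457 calls, 324 lower and 133 higher, and all of the 53 were among them. Without strain C-7 on every food there were 691 calls, 532 lower and 159 higher, with 52 of the 53 among them. Without strain C-M or without strain C-9 there were 0 calls, with 1561 and 697 features at an unadjusted p below 0.05 (edgeR; DESeq2 was run on all libraries only, with 686 calls). The direction of all 53 features was the same in each of these fits. Over 18 or 19 other settings, the call of comp34199_c0 was lost in 13, that of comp29237_c0 in 11 and that of comp38048_c1 in 15.

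Features that the Sonoran comparison called mostly lay in the same direction in each Catalina strain, by different amounts. Of 1797 features that fell on prickly pear in Sonoran larvae, 90.9% were lower in C-M, 75.5% in C-7 and 99.3% in C-9, where 49.2%, 51.1% and 44.8% of all features were lower. Their median within-strain log2 difference was -0.70 in C-M, -0.19 in C-7 and -1.64 in C-9. Of 1821 features that rose in Sonoran larvae, 86.4% were higher in C-M, 75.1% in C-7 and 98.1% in C-9, with median differences of 0.46, 0.24 and 1.42. Fitted log2 fold changes are another measure, as the within-strain differences used a prior count of 2. Their median was -0.85 in Catalina and -1.41 in Sonoran for the features that fell. For those that rose it was 0.68 in Catalina and 1.82 in Sonoran. Both lists were chosen on the Sonoran values. The Sonoran libraries share no library with the Catalina ones, though the fit shares 1 estimate of spread.

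Turned round, the features called in Catalina were read in the Sonoran libraries. All 52 that fell in Catalina were lower on prickly pear in Sonoran larvae, against 42.5% of all features. In all 52 the Sonoran foods did not overlap, against 23.1% of all features lying wholly lower there. The fall was called in 49 of the 52, against 14.4% of all features. The Sonoran libraries shared the filter, scaling and estimate of spread behind the Catalina calls. A small shared spread favours a call in both populations, so these counts are a description and no independent test. With the 6 Catalina libraries alone there were 0 calls. The feature that rose in Catalina, comp34199_c0, also rose in Sonoran larvae, at 2.82, 1.43 and 3.22 CPM on prickly pear against 1.13, 0.813 and 0.541 CPM on lab food in T-22, T-27 and T-28 (log2 fold change 1.57 with SE 0.41, edgeR adjusted p = 0.0170). The fitted log2 fold change of the 52 features had a median of -1.88 in Catalina and -1.72 in Sonoran, and 35 were further from 0 in Catalina, where they had been chosen.

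The difference in response, Catalina minus Sonoran, was called for 0 of 12514 features (0%) by edgeR, with or without strain as a block, and for 0 by DESeq2. An unadjusted p below 0.05 was found for 555 features, 4.44% of those tested, of which 423 had a lower and 132 a higher log2 fold change in Catalina. The smallest adjusted p was 0.852, so no difference between the populations was shown, nor that the responses were alike.

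Among the 52 features that fell, the smallest unadjusted p for that difference belonged to comp39903_c0, chosen after its values were seen. In Catalina it was at 15.2, 16.9 and 15.7 CPM on prickly pear and 34.5, 33.8 and 24.7 CPM on lab food (log2 fold change -0.96 with SE 0.14, edgeR adjusted p = 0.0219). In Sonoran larvae it was at 14.7, 15.8 and 16.3 CPM on prickly pear and 18.4, 19.0 and 18.8 CPM on lab food (log2 fold change -0.27 with SE 0.14, edgeR adjusted p = 0.143). The prickly pear libraries of both populations lay between 14.7 and 16.9 CPM, and the populations stood apart on lab food. The difference in log2 fold change was -0.69 (SE 0.19, unadjusted p = 0.00271, adjusted p = 0.852, edgeR).

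comp26968_c0, also not called in Sonoran larvae and chosen after its values were seen, owed the size of its mean on lab food to 1 library. It was at 1.37, 1.29 and 2.87 CPM on prickly pear in Catalina, against 172, 8.80 and 14.2 CPM on lab food, so the lab food library of C-M carried the mean of 64.9 ± 92.5 CPM (SD, n = 3). It was lower on prickly pear in all 3 strains, with log2 differences of -6.82, -2.64 and -2.25 in C-M, C-7 and C-9, and the foods did not overlap. Its log2 fold change was -5.11 (SE 0.95; edgeR adjusted p = 0.0385) in Catalina and -1.73 (SE 0.89; edgeR adjusted p = 0.146) in Sonoran. The remaining feature not called in Sonoran larvae had a log2 fold change of -0.78 in Catalina and -0.41 in Sonoran, with an adjusted p of 0.0530 there (edgeR).

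On saguaro, the other cactus, 48 of the 52 features had a lower fitted level than on lab food in Catalina larvae, over a continuous range of sizes. At least 2-fold lower were 18 of them, and the other 34 were within 2-fold, while 11.8% of all features were at least 2-fold lower. The median log2 fold change of the 52 was -0.56 on saguaro and -1.88 on prickly pear; over all features it was -0.04 on saguaro and 0.03 on prickly pear. In 21 of the 52 all saguaro libraries lay below all lab food libraries, against 4.32% of all features. The prickly pear and saguaro comparisons share their lab food libraries, so the values stand side by side and are no test of a shared response.

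The saguaro comparison in Catalina called a fall in only 2 of 12514 features (0.016%), and both were among the 52. Both are named for that reason, after their values were seen. The same lab food libraries entered both comparisons. comp39042_c0 was at 56.3, 58.3 and 50.8 CPM on prickly pear, 52.9, 58.0 and 55.3 CPM on saguaro and 120, 112 and 134 CPM on lab food in C-M, C-7 and C-9. Its level was nearly the same on the cacti in every strain, and relative to lab food its log2 fold change came to -1.15 on prickly pear (SE 0.17; edgeR adjusted p = 0.0219) and -1.14 on saguaro (SE 0.17; edgeR adjusted p = 0.0389). comp37436_c0 was at 41.2, 43.5 and 41.0 CPM on prickly pear, 20.6, 45.9 and 36.1 CPM on saguaro and 325, 132 and 349 CPM on lab food. Its prickly pear libraries lay close together, whereas its lab food libraries were spread widely, with C-7 the lowest.

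The features named above differed in where saguaro lay. comp29237_c0, with 0 to 2 counts on prickly pear, had 35, 12 and 236 counts on saguaro in C-M, C-7 and C-9, or 3.75, 0.933 and 20.2 CPM, each below the lab food level of its own strain, and the saguaro and lab food groups overlapped. comp38048_c1 was at 6405, 5581 and 4369 CPM on saguaro, between its levels on prickly pear and on lab food in all 3 strains. comp34199_c0 was at 0.751, 0.933 and 1.11 CPM on saguaro, also between. None of these 3 was called between saguaro and lab food in Catalina (adjusted p = 0.719, 0.631 and 0.631, edgeR).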

How the data were processed

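The authors deposited whole-number counts per assembled gene, with no normalization, for 18 libraries; the series' design text names a Trinity assembly made without a genome and 1 merged count for all sequences of a gene. The submitters' processing notes name edgeR; how reads were counted, rounded or filtered is not given in the sources used here. Each library was divided between 2 sequencing lanes, per the labels' protocols. The 15947 features were filtered with filterByExpr on the 6 groups, which left 12514 with at least 99.9% of the counts of every library.

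All 18 libraries entered 1 edgeR 4.0.16 fit in R 4.3.3, with a mean per group, TMM scaling and the quasi-likelihood F test (12 residual degrees of freedom); comparisons are contrasts of that fit. The SE is the log2 fold change divided by the square root of F. Within-strain differences used log2 CPM with a prior count of 2. The SD is over 3 strains, whose pools are separate but single, so p-values measure the spread between strains, pools and libraries together. The fit was tested on simulated data. Alternatives were RLE factors, library totals, no filter, DESeq2 1.42.0, strain as a block, fewer libraries and thinned counts. Intervals on counts cover counting error only, since copies made by PCR were not told apart.

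Strain pairs the libraries, as each strain is labelled on every food. The prickly pear and lab food deviations from the group means had r = 0.184 in C-M, -0.116 in C-7 and -0.0309 in C-9. Between different strains r ran from -0.0960 to 0.140, so C-M lay above that range, C-7 below it and C-9 within it. Among the Catalina libraries of the same food, prickly pear or lab food, none repeated another (smallest chi-square per degree of freedom 88.7). Other pairs of libraries were not checked.

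Named features are the called one that rose most, the one that fell most (with at least 5 CPM on lab food and no overlap) and the most abundant one that fell. The comparison, classes and rules were chosen with earlier results of these data known.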

Additional observations from a re-analysis of the deposited data

How the results depend on the processing

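The count of 53 features called between prickly pear and lab food in Catalina (1 higher, 52 lower) moved with most choices. It was 4 with RLE factors, 1 with library totals alone, 19 with strain as a replicate block, 686 with DESeq2 (201 higher, 485 lower; 46 of the 53 among them), and 1 with the 9 Catalina libraries alone. It was 0 with the 6 Catalina libraries alone, and 0 with these and the replicate block, where 1810 and 1171 features had an unadjusted p below 0.05 (edgeR). With a library or a strain left out it ran from 0 to 691. It was 49 without a filter, 64 with counts thinned to the smallest library and 57 without the Catalina saguaro library of C-M, a setting chosen after seeing the data. Without a filter comp38048_c1 lost its call (edgeR adjusted p = 0.0581), and with thinned counts comp34199_c0 did (edgeR adjusted p = 0.0820). In every one of these fits the direction of each of the 53 features that was tested was kept. The difference in response between the populations gave 0 calls in all 12 other settings run. The difference in the share of the 100 most abundant features was -5.83 percentage points and ran from -8.74 to -0.644 with a strain left out; it was -1.99 for the 20 and -7.66 for the 500 most abundant features, and with the strains paired its exact sign-flip p was 0.25, the smallest that 3 pairs allow. The mean difference in position between the Sonoran food means, 0.573, ran from 0.295 to 0.774 with a Catalina strain left out and from 0.502 to 0.621 with a Sonoran strain left out, settings chosen after seeing the data.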

Other observations

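On saguaro the Catalina strains were also spread widely. Between the Sonoran food means, the saguaro libraries of C-M, C-7 and C-9 lay at -0.0846, 0.692 and 0.0778, against 0.607, 0.707 and 0.140 for the lab food libraries. C-7 and C-9 kept about the same place on saguaro and lab food, and C-M did not. In C-7 all 3 foods lay between 0.692 and 0.878. The saguaro library of C-M detected 11886 features, against 14308 and 14041 in those of C-7 and C-9 and 14067 to 14604 on Catalina lab food. Whether this library bears on the prickly pear comparison was measured by leaving it out, which gave 57 calls in place of 53, with 49 shared.

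The median SD of log2 CPM over features was 0.275 on prickly pear and 0.301 on lab food in Catalina, and 0.244 on prickly pear and 0.271 on lab food in Sonoran (n = 3 each). On saguaro it was 0.467 in Catalina and 0.319 in Sonoran (n = 3 each). Fewer features passed 2-fold between the foods in C-M and C-7, at 1702 and 629, than in the Sonoran strains, at 3086 to 4705.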
